A study of Mus musculus with 6 samples.

Results

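The expression of 10 genes of the p53 and Rb pathways was examined in GLUTag cells, a mouse line of GLP-1-secreting enteroendocrine cells. The 10 genes were Trp53, Mdm2, Cdkn1a and Cdkn2a on the p53 side, and Rb1, Rbl1, Rbl2, E2f1, Ccne1 and Ccne2 on the Rb side. They were chosen by symbol, as genes of the pathways that the large T antigen used to derive the line acts on. Their level was not a criterion, though earlier results of these data were known at the time. All 10 were among the 54281 genes of the table. The cells were grown in 6 wells, in DMEM with 1 g/L glucose and 10% FBS on 0.4% Matrigel, for 48 h, and every well had this same condition. Plate 1 gave 3 libraries at passage 23 and plate 2 gave another 3 at passage 27, and effects of the plate cannot be told apart from those of passage. No treatment was given, and no cells without large T were in the series, so the levels below have no untransformed control.

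The p53 protein, encoded by Trp53, is a transcription factor that stops the cell cycle or starts apoptosis after DNA damage. The ubiquitin ligase Mdm2 marks p53 for degradation, and the p19Arf product of Cdkn2a holds Mdm2 back. In the Rb pathway, Rb1 and its relatives Rbl1 (p107) and Rbl2 (p130) bind E2F factors and keep S phase genes off until cyclin-dependent kinases phosphorylate them. GLUTag cells come from a tumour of a mouse that carried SV40 large T antigen under the proglucagon promoter, and large T binds both the p53 protein and the Rb family. Such binding acts on protein, which was not measured here, and the transgene itself was not analysed here.

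Levels are given as CPM, the counts of a gene scaled to a common library total. The libraries were made from the 3′ ends of transcripts, so a count does not grow with the length of the transcript. Levels of different genes are set side by side on that basis. Whether 3′ ends of different genes were captured and assigned equally well was not examined. The totals lay between 21399987 and 36488198 counts, and 27044 genes had a count in at least 1 library. The plate 2 libraries are called here by the rank of their total as lowest, middle and highest. The middle one stood apart. Over the 5031 genes whose mean reached 30 CPM, it had 354 at less than 0.5 of their level in the rest of plate 2 and 2 at over 2 times that level. Each of the other libraries, set against its own plate, had at most 3 such lower genes, and the highest library of plate 2 had 49 such higher genes. All 8 enteroendocrine markers were detected, with Gcg, the proglucagon gene, at 3416 CPM on average and Cck at 1080 CPM, and the lowest were Scg2 at 81.2 CPM and Pcsk1 at 82.9 CPM. Of 9 markers of other cell types, the epithelial marker Epcam, a gene of gut epithelium in general, had at most 4 counts, and Sis and Lyz1 had at most 3 counts in any library. Pecam1, Lgr5 and Vil1 were the 3 markers with more than 3 counts in every library, and the others had at most 12 counts in any library. The summed level of the 9 was 45.2 to 103.2 CPM on plate 1 and 11.3 to 39.1 CPM on plate 2. Pecam1, an endothelial gene, made up most of that sum in every library but the middle one of plate 2, where Lgr5 was higher at 5.25 CPM. Pecam1 measured 39.6, 58.8 and 99.8 CPM on plate 1 and 23.7, 3.41 and 32.7 CPM on plate 2, so it was lower on plate 2 without overlap, and its part in the results below was not tested.

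The promoters of the p53 genes and of the Rb genes are shown because both pathways feed back on their own members through DNA sites. Windows of 300 bases, with 250 before and 50 after each start, were taken from RefSeq on GRCm38.p6. There were 10 such windows for 8 of the 10 genes, and no entry for Rb1 or Ccne2. The RefSeq start of E2f1 lies 466 bases inside the gene as GENCODE annotates it, and the second windows of Cdkn1a and Cdkn2a are those of internal starts, so these 3 windows lie within the annotated genes. The p53 half-site consensus was found in 1 window each of Trp53, Mdm2 and Cdkn1a, that is in 3 of the 10 windows against 8.36% of all 32851 windows. The 250 bases before these starts read as follows, 5′ to 3′ along the gene, with each p53 half-site in capitals.
Trp53, chr11:69580109-69580358, plus strand: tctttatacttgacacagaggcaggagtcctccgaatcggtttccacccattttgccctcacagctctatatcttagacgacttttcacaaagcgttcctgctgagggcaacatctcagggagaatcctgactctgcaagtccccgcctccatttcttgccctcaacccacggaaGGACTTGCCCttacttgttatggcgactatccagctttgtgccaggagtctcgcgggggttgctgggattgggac
Mdm2, chr10:117710759-117711008, minus strand: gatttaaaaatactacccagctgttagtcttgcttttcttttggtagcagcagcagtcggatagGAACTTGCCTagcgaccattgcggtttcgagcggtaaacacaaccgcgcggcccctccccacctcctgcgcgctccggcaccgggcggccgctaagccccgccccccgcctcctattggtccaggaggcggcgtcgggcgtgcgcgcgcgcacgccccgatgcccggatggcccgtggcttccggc
Cdkn1a, chr17:29090729-29090978, plus strand: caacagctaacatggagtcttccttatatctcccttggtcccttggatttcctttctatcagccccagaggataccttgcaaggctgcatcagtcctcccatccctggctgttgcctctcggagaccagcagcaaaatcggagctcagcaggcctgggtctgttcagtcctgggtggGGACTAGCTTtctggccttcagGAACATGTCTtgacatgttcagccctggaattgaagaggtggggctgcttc
The half-site began 75 bases before the start in Trp53, 186 bases before it in Mdm2, and 73 and 51 bases before it in Cdkn1a.

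E2F words were searched in the same windows, on both strands. The words were TTTCCCGC, TTTCGCGC, TTTGGCGC and TTTGCCGC, and none of the matches overlapped a p53 half-site. A word was found in the window of Rbl1 and in the upstream of the 2 windows of Cdkn2a, the one of its Arf transcript, that is in 2 of the 10 windows against 2.26% of all. The 250 bases before these starts are given with the E2F word in capitals.
Rbl1, chr2:157204535-157204784, minus strand: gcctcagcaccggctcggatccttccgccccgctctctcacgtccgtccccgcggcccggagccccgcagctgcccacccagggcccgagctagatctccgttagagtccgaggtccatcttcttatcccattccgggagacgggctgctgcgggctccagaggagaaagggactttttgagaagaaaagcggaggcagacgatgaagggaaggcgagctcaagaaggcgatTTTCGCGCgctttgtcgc
Cdkn2a (Arf), chr4:89294620-89294869, minus strand: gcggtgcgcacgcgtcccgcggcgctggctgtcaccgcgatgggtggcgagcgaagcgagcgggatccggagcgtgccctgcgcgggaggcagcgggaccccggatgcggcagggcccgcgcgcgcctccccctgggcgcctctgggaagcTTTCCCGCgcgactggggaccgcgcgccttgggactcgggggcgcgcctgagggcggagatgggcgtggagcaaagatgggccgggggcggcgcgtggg
The word began 18 bases before the start in Rbl1 and 99 bases before it in Cdkn2a. These matches are a description of the letters in the windows and say nothing of binding in these cells.

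On the p53 side, all 4 genes were detected in every library, in the order Cdkn2a, Cdkn1a, Mdm2 and Trp53. Trp53 lies on chromosome 11 at 69580359 to 69591873 on the plus strand of GRCm38. It measured 50.3, 46.2 and 46.9 CPM on plate 1, and 25.7, 10.9 and 23.7 CPM in the lowest, middle and highest libraries of plate 2. All plate 2 libraries were below all plate 1 libraries, and the middle one was the lowest of the 6. In such bulk libraries, fewer cells with the transcript and less of it per cell cannot be told apart. The mean was 34.0 ± 16.1 CPM (SD, n = 6), rank 4610 of the 27044 genes with a count.

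Mdm2, the ligase that removes p53 and is itself a p53 target, lies on chromosome 10 at 117688875 to 117710758 on the minus strand. It measured 72.0, 77.1 and 76.9 CPM on plate 1 and 105.2, 117.4 and 141.4 CPM on plate 2. All plate 2 libraries were above all plate 1 libraries, the opposite order to Trp53. The mean was 98.3 ± 27.8 CPM (SD, n = 6).

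Cdkn1a encodes p21, the Cdk inhibitor that p53 induces to arrest cells, and lies on chromosome 17 at 29090976 to 29100727 on the plus strand. It measured 327.4, 278.4 and 292.8 CPM on plate 1 and 327.0, 248.6 and 229.0 CPM on plate 2. The plates overlapped, since the lowest plate 2 library by total stood beside the highest plate 1 value. The mean was 283.8 ± 40.3 CPM (SD, n = 6), which put Cdkn1a at rank 549.

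Cdkn2a had the highest level of the 10 genes and rank 258. It lies on chromosome 4 at 89274471 to 89294653 on the minus strand, and measured 631.0, 641.8 and 559.4 CPM on plate 1 and 530.0, 476.3 and 446.4 CPM on plate 2. All plate 2 libraries were below all plate 1 libraries, with a mean over the 6 of 547.5 ± 79.5 CPM (SD, n = 6). The gene encodes p16Ink4a, an inhibitor of Cdk4 and Cdk6, and p19Arf, the inhibitor of Mdm2, from 2 starts. The 3′ ends of the 2 annotated transcripts lie 70 bases apart, so the counts of the gene do not separate them.

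On the Rb side, Rb1, the founding member that holds activating E2F factors, measured 31.7, 33.7 and 30.8 CPM on plate 1 and 53.7, 33.9 and 51.9 CPM on plate 2. The plate 2 values were all above plate 1, though the middle library was so only by a small margin. Rb1 lies on chromosome 14 at 73183673 to 73325822 on the minus strand. The annotated genes Rcbtb2, on the opposite strand, and Gm17233, on the same strand, span its 3′ end. No 31-base word of the last 300 bases of its transcripts was found in another gene's transcripts. Only the sense strand was searched, so this cannot show an overlap with a gene on the opposite strand such as Rcbtb2. The assignment of single reads was not examined. The mean was 39.3 ± 10.6 CPM (SD, n = 6).

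Rbl1, the p107 gene, is a relative of Rb1 whose own transcription E2F drives in cycling cells, and lies on chromosome 2 at 157145893 to 157204534 on the minus strand. It measured 32.7, 27.1 and 35.0 CPM on plate 1 and 53.5, 34.9 and 71.5 CPM on plate 2. The plates overlapped through the middle library of plate 2, and the mean was 42.5 ± 16.8 CPM (SD, n = 6).

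Rbl2, the p130 gene, whose product is the main Rb relative of resting cells, had the lowest level of the 10. It measured 17.4, 14.5 and 15.0 CPM on plate 1 and 20.7, 17.9 and 18.3 CPM on plate 2, with a mean of 17.3 ± 2.26 CPM (SD, n = 6). It lies on chromosome 8 at 91070057 to 91123844 on the plus strand, with Aktip on the opposite strand over its 3′ end. Even this lowest member was above the median of genes with a count, which was 0.994 CPM.

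E2f1, the activating factor that Rb1 holds, lies on chromosome 2 at 154559407 to 154569892 on the minus strand. It measured 112.5, 106.9 and 93.9 CPM on plate 1 and 118.2, 135.6 and 106.0 CPM on plate 2, and the plates overlapped. The mean was 112.2 ± 14.0 CPM (SD, n = 6).

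The E cyclins activate Cdk2 at the entry into S phase, and both genes are E2F targets. Ccne1, on chromosome 7 at 38097984 to 38107534 on the minus strand, measured 28.5, 26.6 and 27.0 CPM on plate 1 and 37.1, 32.1 and 40.4 CPM on plate 2. Ccne2, on chromosome 4 at 11191351 to 11204779 on the plus strand, measured 141.2, 123.1 and 128.8 CPM on plate 1 and 153.4, 132.5 and 126.7 CPM on plate 2. The plates did not overlap for Ccne1 and overlapped for Ccne2, and the means were 31.9 ± 5.72 and 134.3 ± 11.2 CPM (SD, n = 6). Ints8 on the opposite strand spans the 3′ end of Ccne2.

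**Figure D1:**
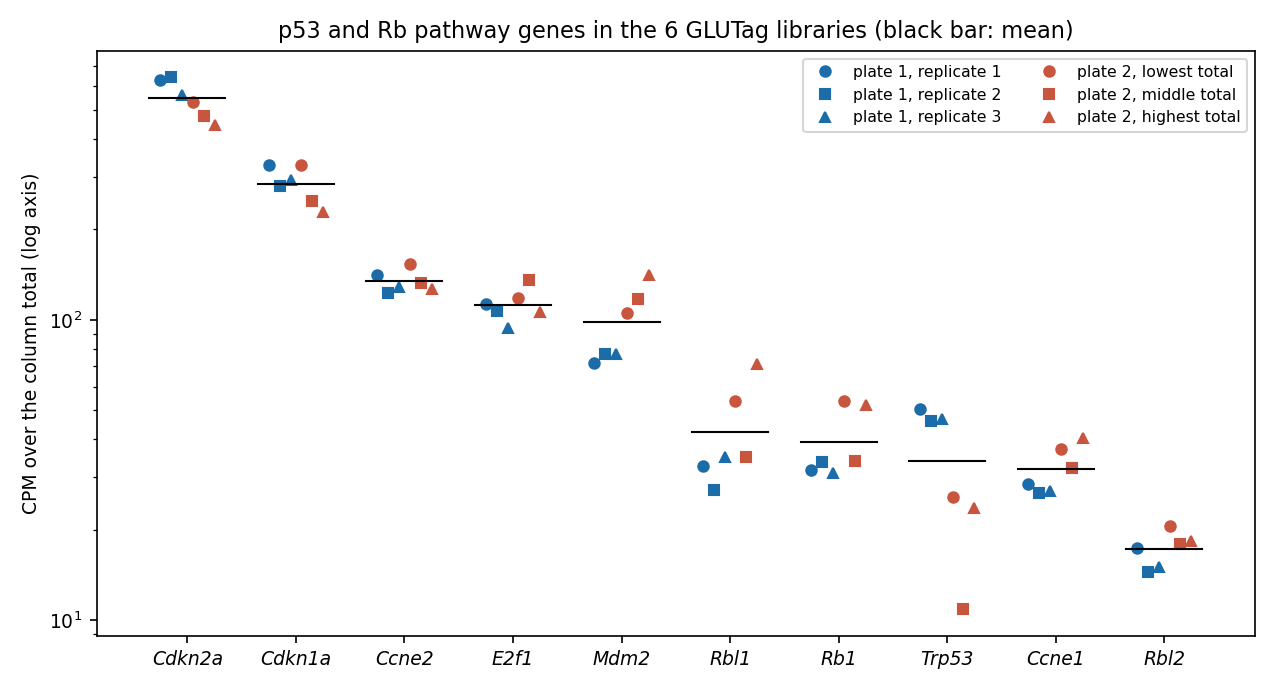
Levels of the 10 genes in CPM on a log axis, 1 point per library, coloured by plate and shaped by library, with a black bar at the mean. The level of Cdkn2a, between 446.4 and 641.8 CPM, stood above the others in every library, and that of Rbl2, between 14.5 and 20.7 CPM, below them except for Trp53 in the middle library of plate 2.

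The order of the means ran Cdkn2a, Cdkn1a, Ccne2, E2f1, Mdm2, Rbl1, Rb1, Trp53, Ccne1 and Rbl2. Between neighbours, Cdkn2a was above Cdkn1a, Cdkn1a above Ccne2, Mdm2 above Rbl1 and Ccne1 above Rbl2 in all 6 libraries. Ccne2 was above E2f1, and E2f1 above Mdm2, in 5 of 6 libraries, and Rbl1 was above Rb1 in 4 of 6. The places of Rb1, Trp53 and Ccne1 turned with the plate. Trp53 was above both on plate 1 and below both on plate 2, in 3 of 3 libraries each time. The spread over the 6 libraries, as a coefficient of variation, was highest for Trp53 at 47.3% and Rbl1 at 39.6%, and lowest for Ccne2 at 8.36%.

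Comparisons between members, 7 in all, were made within each library, where the library's total nearly cancels. For each pair the difference in log2(CPM + 1) was tested two-sided by flipping its sign in every combination of the 6 libraries, an exact permutation test whose smallest possible p is 0.03125, with Benjamini-Hochberg adjustment over the 7 pairs. Wells of a plate may share a culture, so p-values measure only the spread between these libraries. They do not cover differences between genes in how well their 3′ ends were captured. Of the 7 pairs, 6 had the same direction in all 6 libraries, with exact permutation p = 0.03125 and an adjusted p of 0.0365.

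Mdm2 was above Trp53 in 6 of 6 libraries. The ratio of Mdm2 to Trp53 was 1.43, 1.67 and 1.64 on plate 1 and 4.09, 10.8 and 5.96 on plate 2. The ratios did not overlap between the plates, and the highest was that of the middle library of plate 2. The mean log2 difference of Trp53 from Mdm2 was -1.63 ± 1.16 (SD, n = 6).

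Cdkn2a was above Trp53 in 6 of 6 libraries, by 12.5-, 13.9- and 11.9-fold on plate 1 and by 20.6-, 43.7- and 18.8-fold on plate 2. The mean log2 difference of Trp53 from Cdkn2a was -4.13 ± 0.66 (SD, n = 6). Cdkn1a, the arrest gene, was above Mdm2, the feedback gene, in 6 of 6 libraries, by 4.55-, 3.61- and 3.81-fold on plate 1 and by 3.11-, 2.12- and 1.62-fold on plate 2. The gap between these p53 targets was smaller in every plate 2 library than in any plate 1 library, and averaged -1.55 ± 0.56 as the log2 difference of Mdm2 from Cdkn1a (SD, n = 6).

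Among the Rb family, Rb1 and Rbl1 were each above Rbl2 in 6 of 6 libraries. Rb1 exceeded Rbl2 by 1.82-, 2.32- and 2.06-fold on plate 1 and by 2.60-, 1.90- and 2.84-fold on plate 2, a mean log2 difference of 1.11 ± 0.25 (SD, n = 6). The difference of Rbl1 from Rbl2 was 1.18 ± 0.40. Rb1 and Rbl1 were not separated by this test, with a log2 difference of -0.07 ± 0.25 (SD, n = 6) and an exact permutation p of 0.5625. Ccne2 was above Ccne1 in 6 of 6 libraries, by 3.13- to 4.95-fold, with a log2 difference of Ccne1 from Ccne2 of -2.05 ± 0.23 (SD, n = 6).

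**Figure D2:**
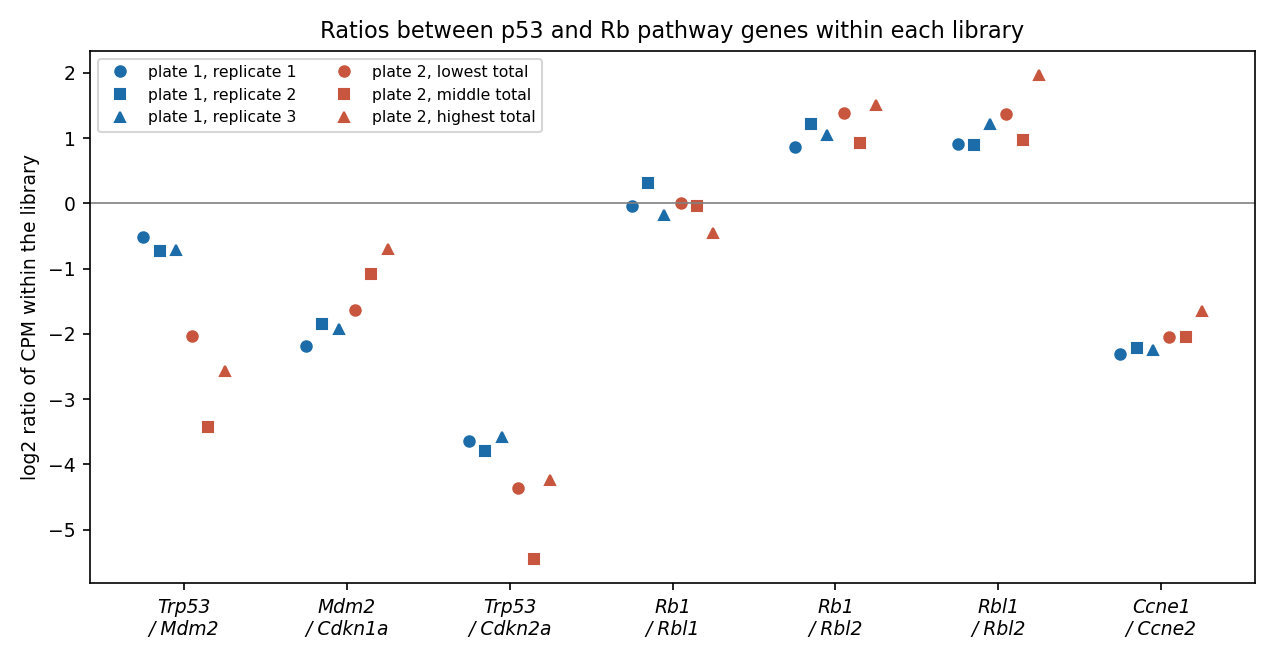
Log2 ratio of CPM, with no value added, between the members of 7 pairs, 1 point per library, coloured by plate and shaped by library. The points of Trp53 over Mdm2 lie lower for all 3 plate 2 libraries, where Mdm2 was 4.09 to 10.8 times Trp53, than for plate 1, and those of Rb1 over Rbl1 lie on both sides of 0.

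The only labelled split of the libraries was plate, which is also passage. Each side came from a single plate whose wells may share a culture. The p-values of every fit between plates therefore measure only the spread between these wells. The mitochondrial share of counts was 3.98%, 4.03% and 4.85% on plate 1 and 4.62%, 5.32% and 7.27% on plate 2, and its part in the differences below was not tested. In edgeR's quasi-likelihood test over 15669 genes, 29 genes, or 0.185%, were called at an adjusted p under 0.05, with 2 higher and 27 lower on plate 2. None of the 10 members was among them. At an unadjusted p under 0.05 there were 4 members, Trp53, Mdm2, Cdkn1a and Cdkn2a, and 2520 of all genes, or 16.1%.

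Trp53 averaged 47.8 ± 2.20 CPM on plate 1 and 20.1 ± 8.04 CPM on plate 2 (SD, n = 3 each), with a fitted log2 fold change of -1.52 (SE 0.29) and a Benjamini-Hochberg adjusted p of 0.0912 by edgeR. Cdkn2a averaged 610.7 ± 44.8 CPM and 484.2 ± 42.3 CPM, a log2 fold change of -0.60 (SE 0.12) with an adjusted p of 0.0900 by edgeR. Both were lower in 3 of 3 plate 2 libraries and neither passed the threshold.

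Mdm2 averaged 75.4 ± 2.89 CPM on plate 1 and 121.3 ± 18.4 CPM on plate 2, a log2 fold change of 0.42 (SE 0.13) and an adjusted p of 0.184 by edgeR. Cdkn1a averaged 299.5 ± 25.2 CPM and 268.2 ± 51.9 CPM, a log2 fold change of -0.43 (SE 0.14) and an adjusted p of 0.199 by edgeR. The 2 targets of p53 thus had opposite signs, and neither passed.

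For the Rb side the log2 fold changes by edgeR were 0.26 (SE 0.18) for Rb1, 0.49 (SE 0.23) for Rbl1 and 0.01 (SE 0.14) for Rbl2. Those of E2f1 and Ccne1 were -0.07 (SE 0.14) and 0.15 (SE 0.13), and that of Ccne2 was -0.20 (SE 0.11). All 6 had adjusted p values of at least 0.353. The median over the 10 members was -0.03, with 5 above and 5 below 0, against 0.03 over all genes tested. This median of all genes was 0.30 when counts were scaled by the total alone, and the signs of E2f1 and Ccne2 turned with that choice.

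In CPM over the total, 4 members (Mdm2, Rb1, Rbl2 and Ccne1) were higher in every plate 2 library than in any plate 1 library, where 35.2% of all genes tested were. Trp53 and Cdkn2a were lower without overlap, where 4.00% of all genes were. In CPM scaled by TMM, 1 member (Mdm2) was higher without overlap beside 12.8% of all genes, and 4 members (Trp53, Cdkn1a, Cdkn2a and Ccne2) were lower beside 12.0%. Mdm2, Trp53 and Cdkn2a were thus the 3 members without overlap on both scales.

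**Figure D3:**
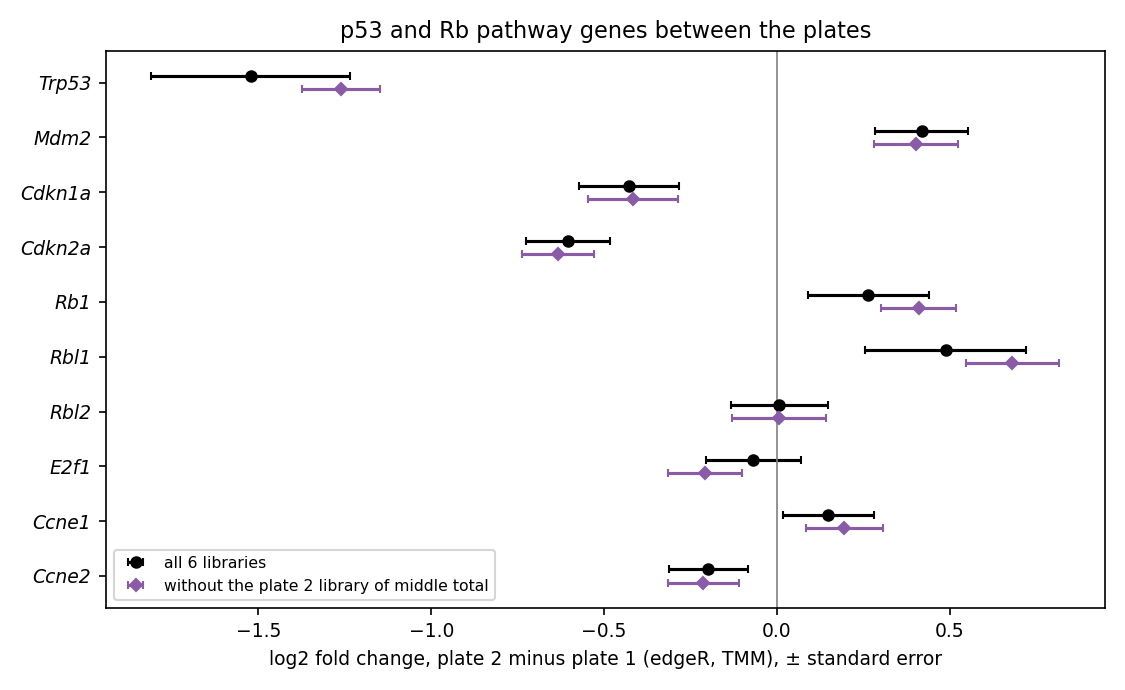
Log2 fold change of each member between plate 2 and plate 1 from edgeR, with its standard error, for all 6 libraries (black circles) and without the plate 2 library of middle total (purple diamonds). The value of Trp53, at -1.52 and -1.26, lay farthest from 0 in both, and with all 6 libraries no member passed an adjusted p of 0.05.

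The middle library of plate 2 bore on these calls. Relative to the mean of the other plate 2 libraries it held 0.441 of the Trp53 level, 0.559 of that of Rbl1 and 0.643 of that of Rb1, but 0.952 of that of Mdm2 and 1.21 of that of E2f1. Without it, edgeR called 1911 genes, or 12.0%, with 4.20% of all genes tested higher and 7.83% lower, and 5 members were among them. These were Trp53 with a log2 fold change of -1.26 and Cdkn2a with -0.63, both lower, and Mdm2 with 0.40, Rb1 with 0.41 and Rbl1 with 0.68, all higher on plate 2. Their adjusted p values were 1.669e-05, 0.00147, 0.0429, 0.0245 and 0.00535. Over the 13 alternatives tried, that of Trp53 ran from 3.449e-06 to 0.3794, that of Cdkn2a from 0.001471 to 0.3899 and that of Mdm2 from 0.02817 to 0.5107. Those of Rb1 and Rbl1 ran from 0.0245 to 0.7841 and from 0.00535 to 0.6807. Without that library Trp53 averaged 24.7 CPM on plate 2, or 0.517 of its plate 1 level. What set the library apart was not tested.

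Other methods called other sets of members. DESeq2 called 529 genes, or 3.80%, with Trp53 and Cdkn2a among them, edgeR without TMM called 1461 genes, or 9.32%, with Mdm2 and Trp53, and edgeR without a filter on low counts called 545 genes, or 2.02%, with Cdkn2a. Under each of the 13 alternatives, Trp53, Cdkn2a and Cdkn1a were below 0 and Mdm2, Rb1, Rbl1 and Ccne1 above 0. Rbl2, E2f1 and Ccne2 had both signs among them. The alternatives are refits of the same libraries.

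The genes around p53 were described from fixed lists, by the highest and lowest members. All 18 regulators of p53 were detected, and none passed the edgeR test between the plates. Nucks1, a chromatin protein, had the highest level at 681 ± 58.6 CPM, followed by Npm1, the nucleolar protein that holds Arf, at 569 ± 82.1 CPM (SD, n = 6). The kinases Hipk2, at 12.8 ± 1.45 CPM, and Chek1, at 12.8 ± 4.50 CPM, had the lowest. Of the relatives of Trp53, Trp63 had 0 counts in every library, which allows at most 0.0822 to 0.14 CPM depending on the library, and Trp73 had at most 4 counts. The median log2 fold change of the 18 regulators between plates was -0.01.

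All 13 p53 targets of arrest and feedback, a list that holds Cdkn1a and Mdm2, were detected, and these were its highest genes. Phlda3 and Trp53inp1 had the lowest levels, at 1.43 and 3.54 CPM. Of 11 apoptosis targets, 8 were tested between the plates. The nuclease gene Aen averaged 44.2 CPM and Ei24 averaged 29.3 CPM, while the death receptor genes Fas and Eda2r had at most 6 counts in any library. Of 8 targets in DNA repair and metabolism, Rrm2b, a ribonucleotide reductase subunit, was the highest. It measured 377, 401 and 261 CPM on plate 1 and 230, 65.2 and 304 CPM on plate 2, so that the plates overlapped and the middle library was again the lowest. Tigar followed at 29.4 CPM, and Xpc, at 8.20 CPM, and Dcxr, at 1.84 CPM, had the lowest levels. None of these targets passed the edgeR test, and the median log2 fold changes were -0.08 for arrest and feedback, 0.11 for apoptosis and 0.12 for repair and metabolism.

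The genes around Rb included one D cyclin at a high level. Ccnd3 measured 432, 484 and 370 CPM on plate 1 and 292, 168 and 337 CPM on plate 2, with all plate 2 libraries below all plate 1 libraries. It did not pass the edgeR test but was called by DESeq2, with a log2 fold change of -0.98. The other list genes that DESeq2 called were Cdk6, at -0.86, and E2f7 and Cdt1, at 0.50 and 0.49. Ccnd1 had at most 2 counts and Ccnd2 at most 4 counts in any library, and their partner Cdk4 averaged 83.2 ± 11.0 CPM (SD, n = 6). Among the Cdk inhibitors, Cdkn1b, the p27 gene, averaged 694 ± 95.5 CPM and Cdkn2d averaged 183 CPM. Cdkn2b, the neighbour of Cdkn2a, averaged 9.45 CPM, and Cdkn1c had 0 counts in every library. The median log2 fold change was -0.17 over the 5 kinases and cyclins tested and -0.12 over the 4 inhibitors tested, and none passed the edgeR test.

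All 9 E2F and DP factors of the list were detected. E2f2 and E2f8 had the highest levels, at 66.0 and 47.6 CPM, and E2f5 and E2f4, which pair with Rbl2 in resting cells, had the lowest, at 4.71 and 10.3 CPM. The MuvB core represses cell cycle genes together with Rbl1 or Rbl2, and activates them together with Mybl2. In this list Rbbp4 averaged 340 CPM and Mybl2 73.4 CPM, and Lin52 and Lin37 averaged 5.37 and 7.52 CPM. Cul7 and Irs1, host partners of large T, averaged 7.96 and 18.0 CPM, whereas Hspa8, the chaperone that its J domain binds, averaged 1345 ± 359 CPM (SD, n = 6) and Crebbp 93.0 CPM. The median log2 fold change between plates was 0.01 for the E2F and DP factors, 0.10 for the DREAM and MuvB subunits and 0.04 for the 7 partners of large T, with none past the edgeR threshold.

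All 18 S phase targets of E2F were detected. Cdk1 averaged 670 CPM and Pcna, the polymerase clamp, 277 CPM, and the licensing genes Cdc6 and Cdt1, at 59.2 and 76.1 CPM, were the lowest of the list. Between the plates, 0 of the 18 passed the edgeR test beside 0.185% of all genes tested, and 5 had an unadjusted p under 0.05, beside 16.1%. Their median log2 fold change was 0.19, with 15 above and 3 below 0, beside a median of 0.03 and a share of 54.1% above 0 for all genes tested. In CPM over the total 13 of the 18 were higher on plate 2 without overlap, beside 35.2% of all genes tested, and in TMM-scaled CPM 5 of 18 were, beside 12.8%. None was lower without overlap. Without the middle library 7 of the 18 were called and all 7 were higher on plate 2, as were 4.20% of all genes tested. They were Mcm4, Mcm6, Pcna, Cdc6, Cdt1, Rrm1 and Rrm2. In that fit, which called 7.83% of all genes lower on plate 2, E2f7, E2f8 and Tfdp1 of the E2F list were also higher, while Ccnd3, Cdk6 and Cdkn1b were lower on plate 2. Of the p53 regulators, Mdm4, the relative of Mdm2 that blocks p53, was higher and Hdac1 was lower. The apoptosis gene Apaf1 and the large T partner Hspa8 were higher. Of the enteroendocrine markers, Cck and Chga were lower and Pcsk1 was higher, and their part in the members' calls was not tested.

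**Figure D4:**
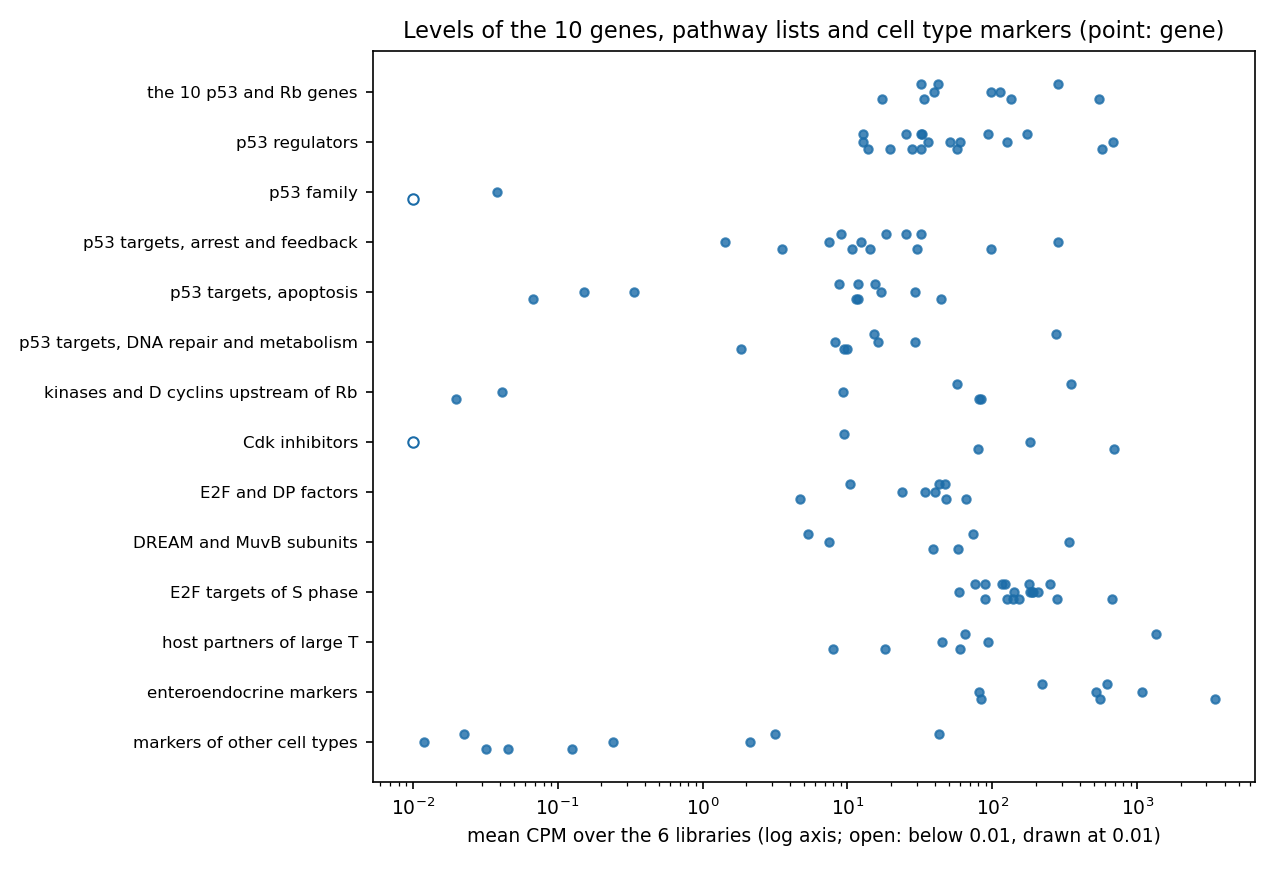
Mean CPM over the 6 libraries of the genes of each list, on a log axis, 1 point per gene, with open circles for genes at 0. The S phase targets of E2F lay at 59.2 CPM or higher, whereas Trp63 and Cdkn1c had 0 counts.

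**Figure D5:**
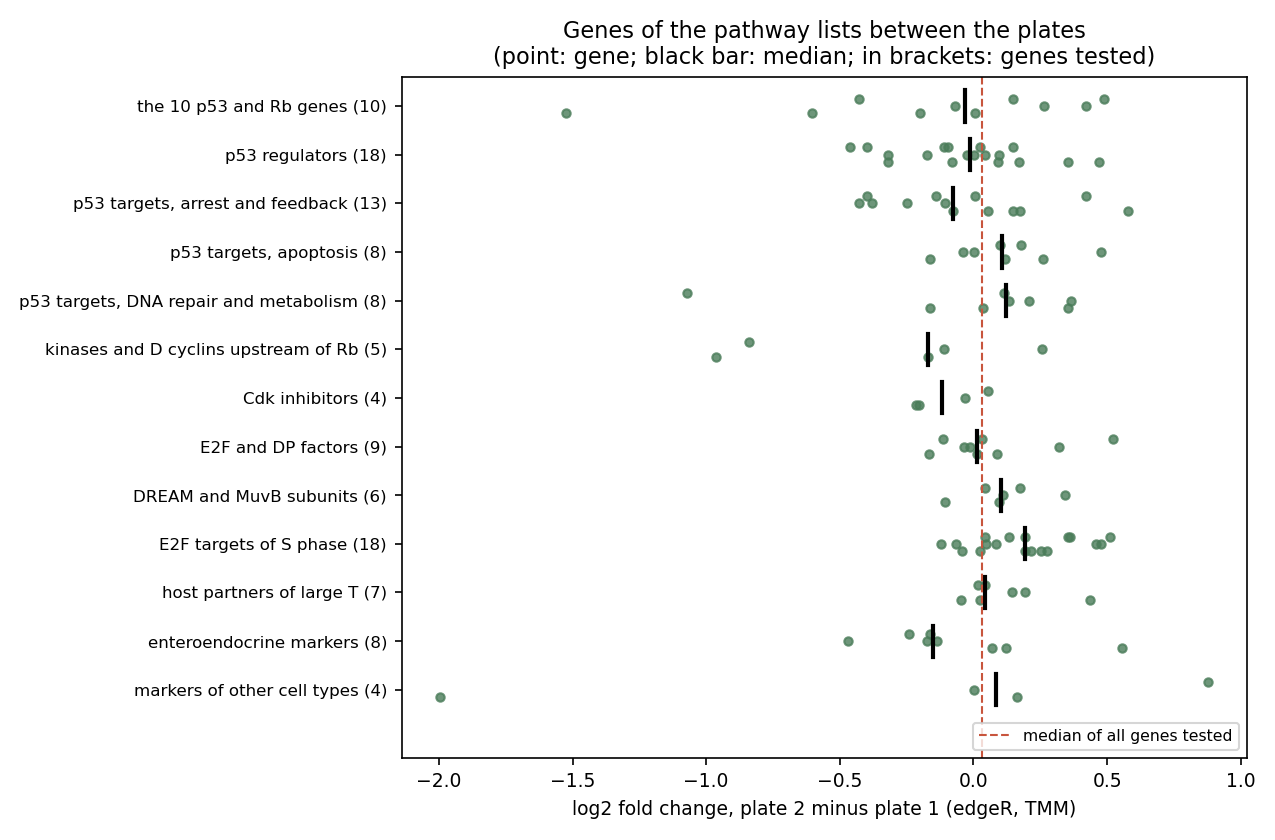
Log2 fold changes between plate 2 and plate 1 from edgeR for the genes of each list that were tested, 1 point per gene, with a black bar at the median of the list and a dashed line at that of all genes tested. The median of the S phase targets was 0.19, that of the kinases and D cyclins was -0.17, that of the enteroendocrine markers was -0.15, that of the 4 markers of other cell types tested was 0.08 and that of all genes tested was 0.03.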

How the data were processed

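RNA of 6 wells of GLUTag cells was sequenced from 3′ ends with the QuantSeq forward kit. Per the labels and the study's methods, the authors trimmed reads with Trim Galore 0.6.4, assigned them with Salmon 1.5.1 to GENCODE transcripts on GRCm38 with no correction for length, and used Tximeta for gene sums. What was deposited are expected counts, which need not be whole and were not normalized. The strand setting was not given in the sources used here. Because the columns of plate 2 match no single replicate, its libraries are called lowest, middle and highest by total.

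Here CPM were taken over each library's total, 21399987 to 36488198 counts. Counts were rounded for edgeR 4.0.16 (TMM, filterByExpr, quasi-likelihood test, Benjamini-Hochberg over all genes tested) in R 4.3.3. DESeq2 1.42.0, limma-voom (limma 3.58.1), other filters and scalings and leaving out each library were alternatives. The fits were tested on simulated data in which, unlike here, no library stood apart. Symbols and positions are from GENCODE on GRCm38, and 54107 of 54281 identifiers matched. No 31-base word of the last 300 bases of a member's transcripts was found in another gene's transcripts. Only the sense strand was searched, so overlaps with genes on the opposite strand were not covered. The members, the 13 gene lists and the tests were chosen with earlier results of these data known. The named genes are all members and, of each list, the 2 highest and 2 lowest by mean CPM, every gene at 3 counts or fewer in every library, and any gene called between plates. Epcam, Vil1 and Gadd45a, and the list genes called by DESeq2 or without the middle library of plate 2 but not by the edgeR test reported, were named after their values were seen. The enteroendocrine markers and the markers of other cell types were among the lists. Intervals from a count of 0, taken as 3 counts, cover counting error only.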

Additional observations from a re-analysis of the deposited data

How the results depend on the processing

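No paired analysis was made, because the labels pair no well of plate 1 with a well of plate 2. The sample labels number the replicates 1 to 3 on plate 1 and 4 to 6 on plate 2. The numbers 1 to 3 in the column names of plate 2 count within that plate and tie no column to a single labelled replicate. All 10 members were at 10 CPM or more in every library under each scaling tried, while the mean level of Trp53 was 47.8 CPM on plate 1 alone and 20.1 CPM on plate 2 alone against 34.0 CPM over all libraries. The pairs other than Rb1 and Rbl1 kept the sign of their mean difference under every setting tried, and with 5 libraries the smallest p of the pair test is 0.0625. The difference of Rb1 from Rbl1 was 0.0276 on plate 1 alone and ranged from -0.14 to 0.0093 when one library was left out, the highest without the plate 2 library of highest total. Genes called numbered 529 by DESeq2, 10 by limma-voom, 1461 without TMM and 545 without a filter, against 29. Members called numbered 2, 0, 2 and 1, and other list genes called numbered 4 by DESeq2, 14 without TMM and 5 without a filter. The share of calls lower on plate 2 was 93.1% in the fit reported, 75.4% by DESeq2, 4.86% without TMM and 53.2% without a filter. Leaving out one library gave 0 to 1911 genes, 0 to 5 members and 0 to 20 other list genes, with 0 genes without replicate 1 of plate 1 or the lowest library of plate 2, 2 and 6 without replicates 2 and 3 of plate 1, 1911 without the middle and 9 without the highest library of plate 2. The cause of these shifts was not tested. Rbl2 turned to -0.0125 by DESeq2, -0.0138 with RLE scaling and ranged from -0.0461 to 0.0861 when one library was left out. E2f1 turned to 0.20 without TMM and ranged from -0.21 to 0.0148, and Ccne2 turned to 0.0697 without TMM.

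Rb1 and Rbl1 passed the edgeR threshold between plates under 1 of the 13 alternatives, the one without the middle library of plate 2. At these depths a count of 0 allows at most 0.0822 to 0.14 CPM.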

Other observations

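In the plate 2 library of middle total, 8 of the 112 members and list genes with at least 1 CPM in each of the other libraries lay under 0.6 of the next lowest library, a limit chosen after the values were seen. This was 7.14% of them, beside 5.78% of all 12497 genes with that level. They were Lin52, Pecam1, Rrm2b, E2f8, Trp53, Scg2, Gadd45a and Ccnd3, in order of this ratio. Lin52, a MuvB subunit, measured 5.29, 4.29 and 4.77 CPM on plate 1 and 7.83, 0.356 and 9.67 CPM in the lowest, middle and highest libraries of plate 2. E2f8, a repressing E2F factor, measured 15.3 CPM in the middle library against a next lowest value of 38.3 CPM. Scg2, a granin of secretory granules, measured 32.1 CPM against 62.4 CPM, and Gadd45a, a p53 target, 15.0 CPM against 26.4 CPM.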
